A study of Mus musculus with 12 samples.

Results

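Decapping and 5′ to 3′ decay remove the cap of an mRNA and then degrade its body from the exposed end. The 10 genes Dcp1a, Dcp1b, Dcp2, Dcps, Edc3, Edc4, Xrn1, Xrn2, Nudt16 and Dxo, which encode the enzymes and cofactors of these steps, were taken by name from the 49585 genes counted, and all 10 were found. They were measured in CD4 T cells that lacked the cap methyltransferase RNMT, in which messages were compared at 2 levels, total cytoplasmic RNA and ribosome protected fragments (RPFs, the stretches of mRNA covered by ribosomes). In *Rnmt* cKO cells Dcp1a and Xrn2 RNA rose while the RPFs of Xrn2 fell, both the RNA and the RPFs of Dcp1b and Dcps fell, and the RPFs of Dcp2 rose. All 10 genes passed the filter on low counts at both levels.

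The mice of both groups were Rnmt fl/fl females. Controls were CD4cre -, and *Rnmt* cKO mice were CD4cre +, so that Cre, driven by a Cd4 transgene that acts from the double-positive stage in the thymus, removed the floxed exon of *Rnmt* in all T cells and not only in CD4 cells. Naive CD4 T cells were isolated from lymph nodes with a kit and activated for 20 h on plates coated with anti-CD3 (5 ug/ml) and anti-CD28 (1 ug/ml), and 0.1 mg/ml cycloheximide was added for 1 min to hold ribosomes on the mRNA. Total RNA and RPF libraries were made from 3 controls and 3 *Rnmt* cKOs, 12 libraries in all. Age and any pooling of animals are not given in the sources used here, and p-values measure the spread between these libraries. Reads counted on genes ranged from 15079703 to 22629563 in total RNA and from 4123271 to 10661356 in RPF, where *Rnmt* cKO replicate 3 was the shallowest.

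In the cytoplasm, decapping cuts the cap from the 5′ end of an mRNA, usually after its poly(A) tail has been shortened. Dcp2 is the catalytic subunit, Dcp1a and Dcp1b are alternative activating partners, and Edc4 and Edc3 are scaffolds that bring them together. Nudt16 and Dxo can also attack caps, Dxo preferring caps that are incomplete or unmethylated, whereas Dcps clears the cap fragment that remains after decay from the 3′ end. Xrn1 in the cytoplasm and Xrn2 in the nucleus then digest RNA with a 5′ monophosphate. RNMT adds the methyl group to the cap guanosine, the group that Dcp2 and Dcps recognise.

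Expression is given as CPM, the share of a library's counts scaled to the usual fixed total, with library sizes set by TMM within each kind of library. *Rnmt* itself was at 95.5, 94.1 and 94.3 CPM in the control total RNA libraries and at 29.3, 32.4 and 30.4 CPM in those of the *Rnmt* cKO. Its RPFs were at 104, 87.9 and 98.9 CPM in controls and at 10.5, 10.4 and 9.60 CPM in *Rnmt* cKOs. The groups did not overlap at either level, in the direction the genotype labels give.

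The 8 markers of CD4 T cells were detected in every library. Their summed level in total RNA was 3791, 3669 and 3445 CPM in controls and 2539, 2526 and 2915 CPM in *Rnmt* cKOs, with Cd28 the most abundant, and 5 of the 8 fell, where 28.0% of all genes tested fell. Cd4 itself was at 330 ± 18.0 CPM (SD, n = 3) in controls and 295 ± 22.4 CPM in *Rnmt* cKOs. In bulk RNA, fewer cells of a type and less RNA per cell cannot be told apart.

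Markers of B cells were not the same across libraries. The sum of 7 B cell markers in total RNA was 9.97, 6.51 and 36.4 CPM in control replicates 1, 2 and 3 and 94.1, 112 and 21.0 CPM in *Rnmt* cKO replicates 1, 2 and 3, with Ms4a1 the most abundant in 5 of 6 libraries. In RPF the same sums were 12.9, 8.89 and 44.0 CPM in controls and 141, 153 and 23.9 CPM in *Rnmt* cKOs. *Rnmt* cKO replicates 1 and 2 therefore stood above all controls and replicate 3 did not, and values for *Rnmt* cKO replicate 3 alone against the 3 controls are given with the main results. Cd8a and Cd8b1 summed to 9.85 to 41.7 CPM in total RNA, 7 myeloid markers to 1.02 to 2.65 CPM with Csf1r and Cd14 at 0 in most libraries, and 5 NK cell markers to 3.18 to 4.58 CPM, most of it Klrd1. Each of the other NK cell markers was much lower, but Ncr1 (0.071 CPM in controls and 0.49 CPM in *Rnmt* cKOs), Klrb1c (0.018 and 0.35 CPM) and Klre1 (0.14 and 0.59 CPM) were higher in every *Rnmt* cKO library of total RNA, replicate 3 included. So were the myeloid markers Itgam (0.053 and 0.15 CPM) and Itgax (0.018 and 0.21 CPM), which overlapped in RPF, while the other myeloid markers overlapped in total RNA. The part of NK and myeloid cells in the results was not tested. Among regulatory T cell markers, Foxp3 was at 0.80 ± 0.10 CPM in control total RNA and 0.54 ± 0.29 CPM in *Rnmt* cKOs, and Ctla4 at 156 ± 18.5 and 110 ± 31.2 CPM. Ikzf2 and Il2ra, which activated T cells also express, rose from 10.1 ± 1.36 to 21.9 ± 0.76 CPM and from 176 ± 10.2 to 310 ± 53.1 CPM (edgeR adjusted p = 1.3e-04 and 7.2e-04).

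Genotypes were compared with edgeR's quasi-likelihood F test over all genes that passed the filter, with p-values adjusted by the Benjamini-Hochberg method and a threshold of 0.05. Translation efficiency (TE) is the RPF level of a gene relative to its total RNA. Its change was tested with an interaction term in a model of all 12 libraries. Single ratios of RPF to total RNA, and the overlap of groups in TE, join libraries of the same number and genotype. The labels do not tie these libraries to a shared animal, and the main TE test did not treat them as pairs. Within each genotype, the B cell marker sums had the same order by number in total RNA and RPF. Fold changes compare shares of the sequenced RNA, not amounts per cell. The share of all genes tested that changed was 54.2% for total RNA, 29.8% for RPF and 9.81% for TE.

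Among the 10 decay genes, 2 fell, 5 rose and 3 did not pass the test in total RNA, with a median log2 fold change of 0.16. The shares of all genes that fell and rose in total RNA were 28.0% and 26.3%. In RPF 5 fell, 2 rose and 3 did not pass, with a median of -0.10, where 15.7% of all genes fell and 14.1% rose. In TE 2 fell, 1 rose and 7 did not pass, with a median of -0.11, where 6.57% of all genes fell and 3.24% rose (701 and 346 genes, and 604 and 481 with upper quartile scaling). The corresponding medians of all genes tested were -0.00, 0.01 and 0.04. Genotypes did not overlap for 7 of the 10 genes in total RNA, where 62.3% of all genes tested did not, for 8 in RPF (46.5% of all) and for 4 in TE (31.6% of all). With 7 of 10 genes called in each of total RNA and RPF, the family moved in both directions at each level. For *Rnmt* cKO replicate 3 alone against the controls, 2 fell and 3 rose in total RNA, 3 fell and 1 rose in RPF, and 2 fell in TE. The medians moved when single libraries were left out: in total RNA to 0.095 (control replicate 2 left out), 0.096 (*Rnmt* cKO replicate 2) and 0.24 (*Rnmt* cKO replicate 3), and in TE to -0.21 (control replicate 1), -0.056 (control replicate 2) and -0.26 (*Rnmt* cKO replicate 2). With *Rnmt* cKO replicate 3 alone they were 0.15 for total RNA, -0.16 for RPF and -0.28 for TE.

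**Figure D1:**
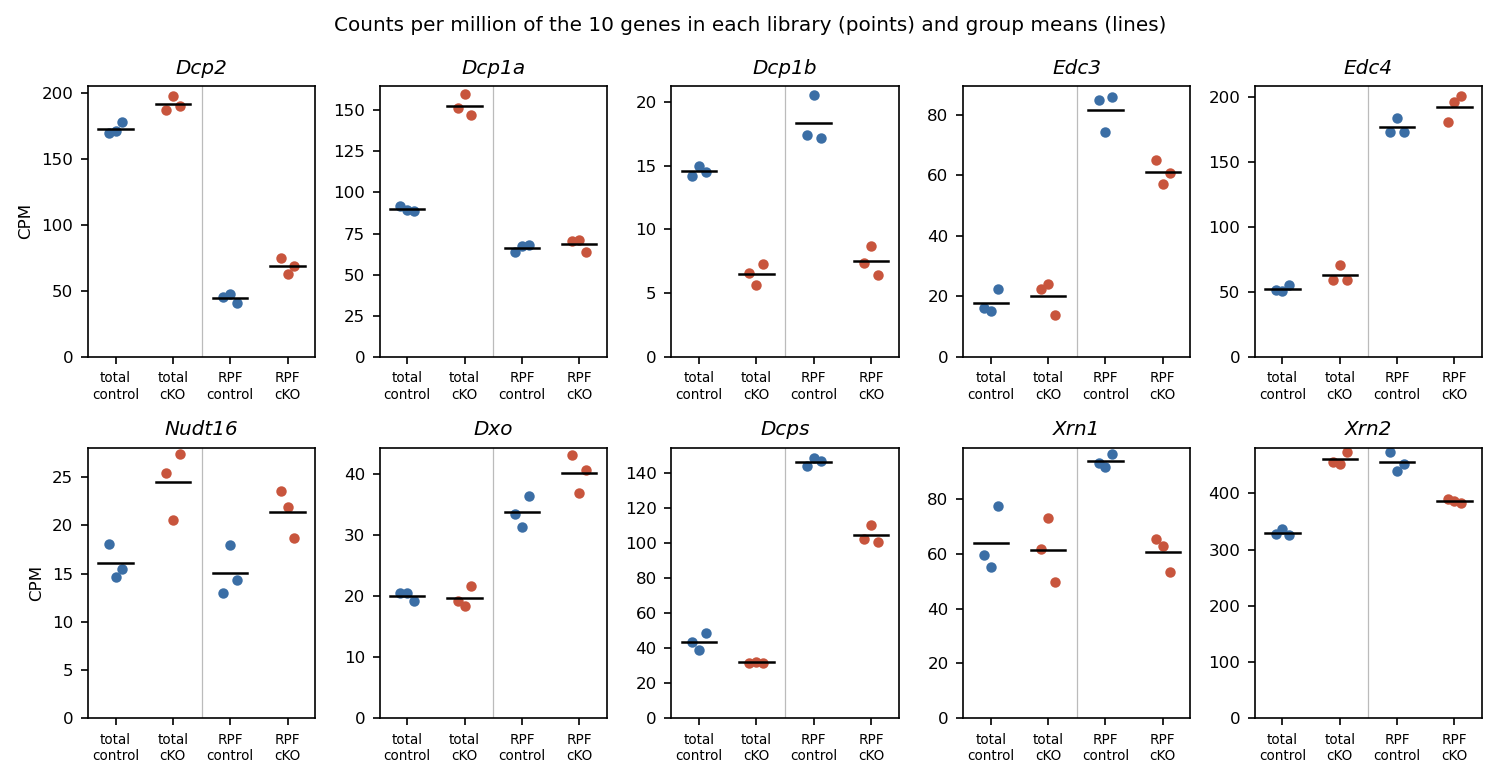
Level of each decapping and 5′ to 3′ decay gene, in CPM (y axis, from 0), in the control (blue) and *Rnmt* cKO (red) libraries of total RNA (left of the grey line) and RPF (right of it); points are single libraries and black lines are group means. Dcp1b was lower in every *Rnmt* cKO library at both levels, and Dcp1a was higher in total RNA, at 152.7 against 90.0 CPM, while its RPFs overlapped.

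The genes differed widely in abundance. Divided by exon length, control total RNA in RPKM (CPM per kilobase) was highest for Xrn2 at 96.2, followed by Dcps at 30.2, Dcp2 at 19.9, Dcp1a at 16.1, Dxo at 13.2, Edc4 at 11.0, Nudt16 at 9.85, Xrn1 at 6.10, Dcp1b at 4.39 and Edc3 at 3.14. Among neighbours in this order, the 3 control libraries overlapped only for Edc4 and Nudt16. Xrn2 lay at the 94.6th percentile of all genes tested in total RNA and Edc3 at the 26.2th.

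Divided by coding length, control RPFs in RPKM were again highest for Xrn2, at 160, and Dcps, at 128. Edc3 came next at 53.5, then Edc4 at 41.9, Dcp1a at 36.8, Dcp2 at 34.0, Dxo at 28.3, Nudt16 at 25.8, Xrn1 at 18.0 and Dcp1b at 10.6. Dcp1a overlapped Dcp2, and Dxo overlapped Nudt16. Edc3, the least abundant in RNA, thus came after only Xrn2 and Dcps in RPF, and its ratio of RPF to total RNA per length in controls was 17.4, the 98.8th percentile of 10055 genes. The ratio was 4.28 for Dcps and lowest for Dcp2, at 1.72, and Xrn2, at 1.66. The reads of Edc3 in total RNA are described with that gene.

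Xrn2 alone held 45.8% of the summed RPKM of the 10 genes in control total RNA and 52.0% in *Rnmt* cKOs, and Dcps held 14.4% and 8.51%. The summed level in total RNA was 210, 206 and 214 RPKM in controls and 255, 258 and 261 RPKM in *Rnmt* cKOs. In RPF it was 536, 537 and 537 RPKM in controls and 501, 489 and 478 RPKM in *Rnmt* cKOs. The groups did not overlap at either level, *Rnmt* cKOs being higher in total RNA and lower in RPF, and Xrn2 was the largest part of each sum.

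Dcp2 (ENSMUSG00000024472, chr18:44380502-44424969, plus strand, GRCm38), the decapping enzyme, was the gene whose RPFs rose most. Its RPFs were at 45.1, 47.5 and 40.8 CPM in controls and at 74.5, 63.0 and 69.1 CPM in *Rnmt* cKOs, with no overlap, a log2 fold change of 0.63 ± 0.09 (SE, edgeR adjusted p = 0.0021). In total RNA it was at 169, 171 and 178 CPM in controls and 187, 197 and 190 CPM in *Rnmt* cKOs. The groups were close but separate, with a log2 fold change of 0.15 ± 0.05 (edgeR adjusted p = 0.040). This call was lost with DESeq2 and in 9 of 15 alternatives, while that in RPF was kept in all of them.

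The TE of Dcp2 rose. The log2 ratio of RPF to total RNA was -1.91, -1.85 and -2.12 in controls and -1.33, -1.65 and -1.46 in *Rnmt* cKOs. Every *Rnmt* cKO pair was higher than every control pair, and the change was 0.48 ± 0.10 (edgeR adjusted p = 0.0096). The call was lost without control replicate 3 or *Rnmt* cKO replicate 1. With *Rnmt* cKO replicate 3 alone the RPF change of 0.64 passed, while those of 0.16 in total RNA and 0.48 in TE did not (edgeR adjusted p = 0.11 for both).

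Edc4 (ENSMUSG00000036270, chr8:105880881-105894908, plus strand), the scaffold that holds Dcp1 and Dcp2 together, rose slightly in total RNA. It was at 51.5, 50.3 and 55.5 CPM in control total RNA and at 58.9, 70.3 and 58.8 CPM in *Rnmt* cKOs, which did not overlap (log2 fold change 0.26 ± 0.09, edgeR adjusted p = 0.036). The RPFs overlapped, at 173, 184 and 173 CPM in controls and 181, 196 and 201 CPM in *Rnmt* cKOs, with a log2 fold change of 0.12 ± 0.06 that did not pass (edgeR adjusted p = 0.18). The TE difference of -0.13 ± 0.11 did not pass either. The call in total RNA was lost with upper quartile scaling, under the block for replicate number and without control replicate 1, control replicate 2 or *Rnmt* cKO replicate 2. It was also lost for *Rnmt* cKO replicate 3 alone (0.19, edgeR adjusted p = 0.13).

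Edc3 (ENSMUSG00000038957, chr9:57708540-57752499, plus strand), which binds Dcp2 and enhances its activity, fell in RPF. RPFs of the gene were at 84.8, 74.2 and 85.8 CPM in controls and at 65.1, 57.1 and 60.8 CPM in *Rnmt* cKOs, with no overlap (log2 fold change -0.42 ± 0.09, edgeR adjusted p = 0.0082). In total RNA the libraries overlapped, at 16.1, 15.2 and 22.5 CPM in controls and 22.5, 24.2 and 13.7 CPM in *Rnmt* cKOs, a log2 fold change of 0.16 ± 0.23 (edgeR adjusted p = 0.57). The high control was replicate 3 and the low *Rnmt* cKO was replicate 3, which are the control with the highest and the *Rnmt* cKO with the lowest B cell marker sum. Whether those cells had a part in the spread of Edc3 was not tested. For *Rnmt* cKO replicate 3 alone, with the lowest B cell markers of its genotype, the RPF change was -0.43 and did not pass (edgeR adjusted p = 0.093).

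Edc3 also shares 584 exon bases with Clk3, on the opposite strand. In total RNA, 287, 246 and 325 reads in controls and 360, 463 and 499 in *Rnmt* cKOs lay on the strand opposite to Edc3, against 303, 287 and 417 and 332, 469 and 318 on its own strand. The opposite strand thus held reads of the same order as the strand of the gene, and more of them in *Rnmt* cKO replicates 1 and 3. The TE difference of Edc3, -0.58 ± 0.26, did not pass (edgeR adjusted p = 0.19) but passed without *Rnmt* cKO replicate 3, at -0.81.

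The paralogues Dcp1a (ENSMUSG00000021962, chr14:30479535-30527063, plus strand) and Dcp1b (ENSMUSG00000041477, chr6:119175253-119221616, plus strand), interchangeable activators of Dcp2, moved in opposite directions in total RNA. The RefSeq promoters (build GRCm38.p6) of both are shown because the genes encode partners of the same enzyme and diverged. The 100 bases before each RefSeq start, 5′ to 3′ on the plus strand, are printed in lower case. For Dcp1a this start lies inside the span given above, which came from another annotation. Capitals would mark the motifs described with the promoters of the exonucleases.
Dcp1a, chr14:30479465-30479564: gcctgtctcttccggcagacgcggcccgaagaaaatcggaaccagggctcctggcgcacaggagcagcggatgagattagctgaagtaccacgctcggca
Dcp1b, chr6:119175153-119175252: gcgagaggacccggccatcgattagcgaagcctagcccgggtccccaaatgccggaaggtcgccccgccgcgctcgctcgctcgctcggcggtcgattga
Neither stretch holds one of those motifs, and the 300 bases around the starts, 250 before and 50 after, were 65.3% and 61.7% G and C.

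Dcp1a was at 91.8, 89.4 and 88.7 CPM in control total RNA and at 151, 160 and 147 CPM in *Rnmt* cKOs. The *Rnmt* cKO libraries stood far above the controls, with a log2 fold change of 0.76 ± 0.05 (edgeR adjusted p = 3.0e-05). Its RPFs overlapped, at 63.8, 67.7 and 67.8 CPM in controls and 70.6, 70.8 and 63.7 CPM in *Rnmt* cKOs, a log2 fold change of 0.05 ± 0.07 (edgeR adjusted p = 0.66). The rise in Dcp1a RNA was therefore not seen in its RPFs.

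The TE of Dcp1a fell accordingly. The log2 ratio of RPF to total RNA was -0.53, -0.40 and -0.39 in controls and -1.10, -1.17 and -1.20 in *Rnmt* cKOs, a change of -0.71 ± 0.09 (edgeR adjusted p = 1.9e-04). The groups were far apart, and the total RNA and TE calls were kept in all 15 alternatives. They were also kept for *Rnmt* cKO replicate 3 alone, at 0.73 and -0.79.

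Dcp1b was much less abundant and fell at both levels. It was at 14.2, 15.0 and 14.5 CPM in control total RNA and at 6.58, 5.62 and 7.26 CPM in *Rnmt* cKOs, a log2 fold change of -1.16 ± 0.12 (edgeR adjusted p = 1.3e-04). Its RPFs were at 17.4, 20.5 and 17.2 CPM in controls and at 7.37, 8.69 and 6.40 CPM in *Rnmt* cKOs, a change of -1.27 ± 0.16 (edgeR adjusted p = 0.0011). RNA and RPFs fell by similar amounts, the groups did not overlap at either level, and the TE difference of -0.09 ± 0.19 did not pass. For *Rnmt* cKO replicate 3 alone the changes were -0.97 and -1.52, and both passed.

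The balance of the paralogues was followed within each library as the log2 ratio of Dcp1a to Dcp1b CPM. In total RNA it was 2.63 ± 0.06 (SD, n = 3) in controls and 4.56 ± 0.25 in *Rnmt* cKOs, a difference of 1.93. In RPF it was 1.86 ± 0.13 and 3.19 ± 0.15, a difference of 1.33. At both levels the lowest *Rnmt* cKO ratio exceeded the highest control ratio, and the two-sided exact permutation p was 0.1 each time, the smallest that 3 against 3 libraries can give. It was 0.1 after adjustment over the 4 ratios compared.

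**Figure D2:**
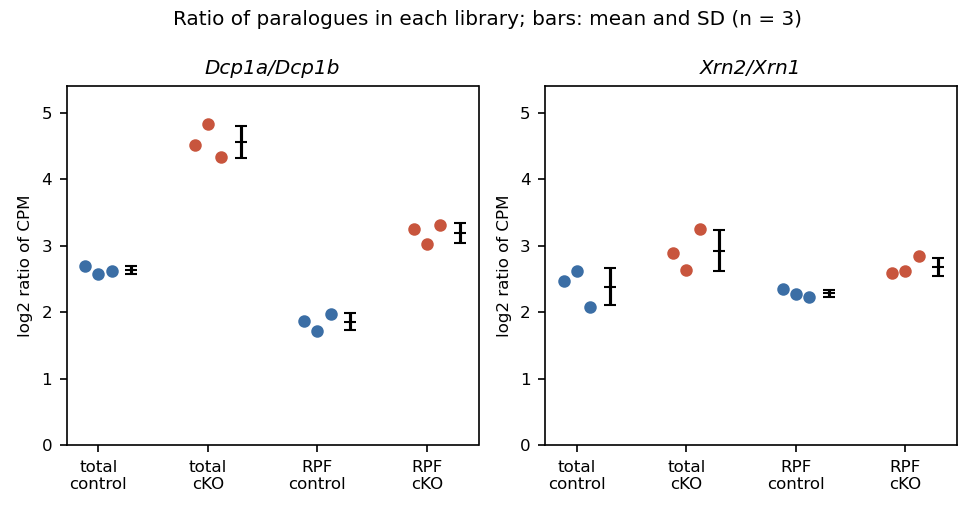
Log2 ratio of the CPM of Dcp1a to Dcp1b (left) and of Xrn2 to Xrn1 (right), y axis from 0, in each control (blue) and *Rnmt* cKO (red) library of total RNA and RPF; bars are the mean and SD of 3 libraries. In all 4 comparisons every *Rnmt* cKO library was above every control, by the widest margin for Dcp1a over Dcp1b in total RNA, where the means were 4.56 and 2.63.

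Nudt16 (ENSMUSG00000032565, chr9:105128903-105131824, minus strand), a Nudix hydrolase that can decap a subset of RNAs and small nucleolar RNAs, rose at both levels. In total RNA it was at 18.1, 14.6 and 15.5 CPM in controls and at 25.4, 20.6 and 27.3 CPM in *Rnmt* cKOs, with no overlap (log2 fold change 0.61 ± 0.13, edgeR adjusted p = 0.0051). At the level of RPFs it was at 13.0, 17.9 and 14.3 CPM in controls and 23.5, 21.9 and 18.7 CPM in *Rnmt* cKOs, a change of 0.52 ± 0.16 (edgeR adjusted p = 0.036). The RPF groups were separated narrowly, and that call was lost with DESeq2 and without control replicate 1, control replicate 3, *Rnmt* cKO replicate 1 or *Rnmt* cKO replicate 2. For *Rnmt* cKO replicate 3 alone the changes were 0.80 in total RNA, which passed, and 0.32 in RPF, which did not. The TE difference was -0.07 ± 0.21.

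Dxo (ENSMUSG00000040482, chr17:34837019-34839233, plus strand), which removes incomplete caps, did not pass any of the 3 tests. It was at 20.4, 20.5 and 19.1 CPM in control total RNA and at 19.1, 18.4 and 21.6 CPM in *Rnmt* cKOs, which overlapped (log2 fold change -0.02 ± 0.09, edgeR adjusted p = 0.86). An interval of 2 standard errors around it runs from -0.20 to 0.16. In RPF every *Rnmt* cKO library was above the controls, at 43.1, 36.8 and 40.6 CPM against 33.4, 31.4 and 36.3 CPM, but the change of 0.25 ± 0.10 did not pass (edgeR adjusted p = 0.092). The TE difference was 0.27 ± 0.13.

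Dcps (ENSMUSG00000032040, chr9:35124408-35176061, minus strand), the scavenger of cap fragments, fell by nearly the same amount at both levels. It was at 43.8, 39.2 and 48.5 CPM in control total RNA and at 31.7, 32.3 and 31.5 CPM in *Rnmt* cKOs (log2 fold change -0.46 ± 0.09, edgeR adjusted p = 0.0029). Its RPFs were at 144, 149 and 147 CPM in controls and at 103, 111 and 101 CPM in *Rnmt* cKOs (-0.48 ± 0.06, edgeR adjusted p = 0.0011). The groups did not overlap at either level, the TE difference was -0.02 ± 0.10, and both calls were kept in all 15 alternatives and for *Rnmt* cKO replicate 3 alone.

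Xrn1 (ENSMUSG00000032410, chr9:95954760-96057803, plus strand), the cytoplasmic exonuclease, fell in RPF. Ribosome protected fragments were at 93.1, 91.5 and 96.4 CPM in controls and at 65.2, 62.9 and 53.4 CPM in *Rnmt* cKOs, with no overlap (log2 fold change -0.62 ± 0.09, edgeR adjusted p = 0.0014). In total RNA it was at 59.5, 55.1 and 77.2 CPM in controls and at 61.6, 73.0 and 49.8 CPM in *Rnmt* cKOs, which overlapped (-0.06 ± 0.16, edgeR adjusted p = 0.78). The order of the replicates within each genotype was the same as for Edc3 and for the B cell marker sums, and the part of those cells was not tested. The RPF change for *Rnmt* cKO replicate 3 alone was -0.81 and passed.

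The log2 ratio of RPF to total RNA of Xrn1 was 0.65, 0.73 and 0.32 in controls and 0.08, -0.21 and 0.10 in *Rnmt* cKOs. The groups did not overlap, but the change of -0.56 ± 0.20 did not pass (edgeR adjusted p = 0.10). It passed with DESeq2, with a block for genotype and replicate number together (-0.58, edgeR adjusted p = 0.018), which the labels do not tie to a shared animal, and without *Rnmt* cKO replicate 3. Xrn1 shares 199 exon bases with an antisense gene, C78334.

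Xrn2 (ENSMUSG00000027433, chr2:147012996-147078000, plus strand), the nuclear exonuclease that also helps to end transcription, was the most abundant of the 10, and its RNA and RPFs moved in opposite directions. It was at 328, 337 and 326 CPM in control total RNA and at 455, 453 and 474 CPM in *Rnmt* cKOs (log2 fold change 0.48 ± 0.06, edgeR adjusted p = 2.5e-04). Its RPFs were at 473, 440 and 453 CPM in controls and at 390, 387 and 382 CPM in *Rnmt* cKOs (-0.24 ± 0.06, edgeR adjusted p = 0.016). All *Rnmt* cKO libraries were above the controls in RNA and below them in RPF.

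The TE of Xrn2 fell by a value close to that of Dcp1a. The log2 ratio of RPF to total RNA was 0.53, 0.38 and 0.48 in controls and -0.22, -0.23 and -0.31 in *Rnmt* cKOs. The sign differed in every library, and the change was -0.72 ± 0.08 (edgeR adjusted p = 9.1e-05). All 3 calls were kept in all 15 alternatives. For *Rnmt* cKO replicate 3 alone the values were 0.55, -0.25 and -0.80, of which that in RPF did not pass (edgeR adjusted p = 0.13).

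The log2 ratio of Xrn2 to Xrn1 CPM was 2.38 ± 0.28 (SD, n = 3) in control total RNA and 2.92 ± 0.31 in *Rnmt* cKOs, and 2.28 ± 0.06 and 2.68 ± 0.14 in RPF. The differences, 0.54 and 0.40, were smaller than those of Dcp1a to Dcp1b, and in total RNA the groups nearly met. The two-sided exact permutation p was again 0.1, the smallest possible.

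**Figure D3:**
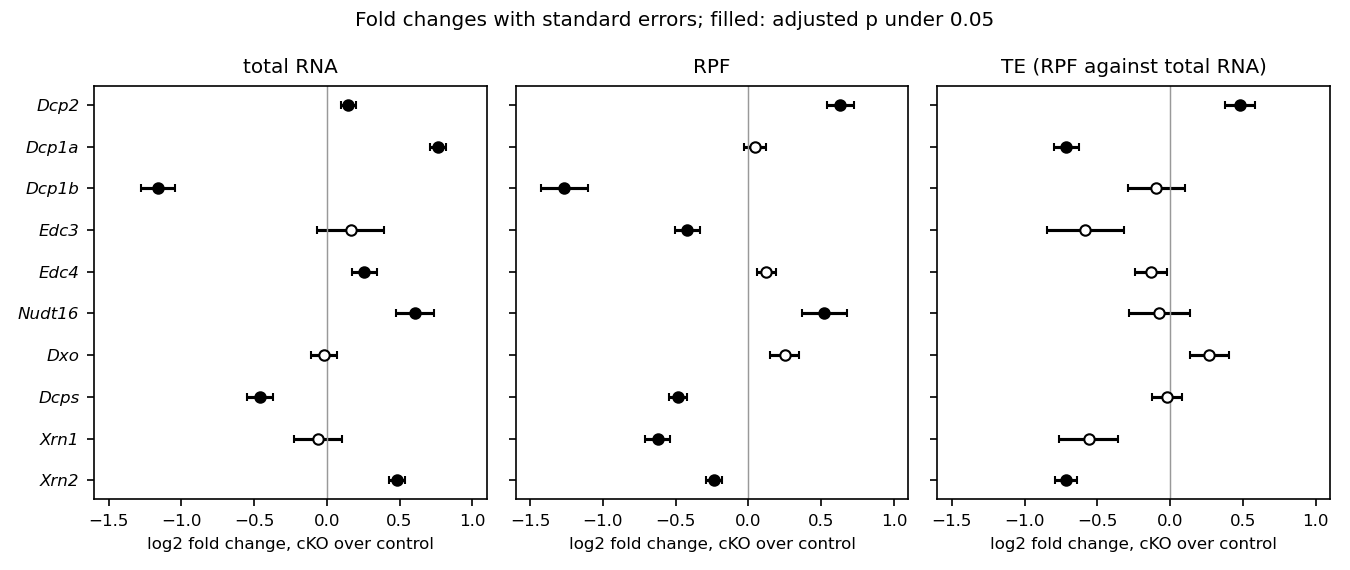
Log2 fold change of *Rnmt* cKO over control (x axis) for each gene (y axis) in total RNA, RPF and TE, with bars of 1 standard error from edgeR and filled circles where the adjusted p was under the threshold of 0.05. Dcp1a and Xrn2 lie to the right in total RNA and to the left in TE, at -0.71 and -0.72, Dcp2 lies to the right in all 3 panels, and Dcp1b and Dcps lie to the left in total RNA and RPF with TE near 0.

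The promoters of the exonucleases are shown because Xrn2 RNA rose and Xrn1 RNA did not pass the test. They are again the RefSeq sequences of build GRCm38.p6, 100 bases before each RefSeq start. The bases run 5′ to 3′ on the plus strand, with a GC box in capitals. For Xrn2 this start also lies inside the span given for the gene.
Xrn1, chr9:95954660-95954759: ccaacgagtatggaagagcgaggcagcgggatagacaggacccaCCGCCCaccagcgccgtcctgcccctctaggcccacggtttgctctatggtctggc
Xrn2, chr2:147012899-147012998: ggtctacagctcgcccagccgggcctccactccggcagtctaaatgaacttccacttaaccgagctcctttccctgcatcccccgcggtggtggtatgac
Xrn1 has a GC box there, read on the opposite strand, and Xrn2 has none.

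Promoters of 8 of the 10 genes, all but Dcp2 and Dxo, were searched for 5 motifs on both strands, in the 300 bases around each start. The ETS motif CCGGAAGT was found in 3 of 8 (Xrn2, Edc4 and Nudt16, all just past the start) and in 3.89% of 32851 promoters. The GC box GGGCGG was found in 4 of 8 (Dcps, Edc3, Xrn1 and Nudt16) and in 35.7% of all, CCAAT in 3 of 8 (Edc4, Dcps and Nudt16) and in 37.4%, and the E box CACGTG in Xrn2 and in 7.15%. TATAAA was in none of the 8 and in 13.6% of all.

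Over the 12 libraries, centred within total RNA and RPF, the levels of Dcp1b and Dcps moved together (Pearson r = 0.95, as a description), as did those of Edc3 and Xrn1 (0.84) and of Dcp1a and Xrn2 (0.84). Dcp2 moved against Dcp1b (-0.83) and Dcps (-0.80). These libraries share the 2 genotypes, so that any genes that changed are correlated. Among 7292 genes with a mean log2 CPM of at least 4, those most like Dcps were Prkcq, Trim12c and Itsn2 (each 0.98), those most like Xrn2 were Sfr1, Capza2 and Appl1 (each 0.98), and those most like Xrn1 were Herc1 (0.98), Jak1 (0.96) and Nisch (0.96). Pdzd11, Caap1 and Stk19 (0.97, 0.96 and 0.94) were most like Dcp2, and Sem1 (0.97) most like Dxo.

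Other genes of mRNA decay were examined as lists, beginning with the activators of decapping, the Lsm ring, Patl1, Ddx6 and the like. Of 14 tested in total RNA, 3 rose, 3 fell and 8 did not pass, with a median log2 fold change of -0.01, and 42.9% were called against 54.2% of all genes tested. The 3 that fell became 1 without control replicate 1 or *Rnmt* cKO replicate 2 and 0 for *Rnmt* cKO replicate 3 alone, while 3 rose in every alternative. Pnrc1, which binds Dcp1a, rose by 0.82 ± 0.09 (SE), from 174 ± 8.90 CPM (SD, n = 3) to 307 ± 33.3 CPM (edgeR adjusted p = 1.7e-04). Patl1, which links the Lsm ring to Dcp2, rose by 0.66 ± 0.17, and Lsm14a, a protein of processing bodies, by 0.62 ± 0.12. The TE of all 3 fell, by 1.13 for Pnrc1, 0.74 for Patl1 and 0.66 for Lsm14a, the same arrangement as for Dcp1a and Xrn2. It is not particular to decay genes, since the authors reported higher total RNA for most mRNAs whose TE fell. In RPF 3 of 14 fell, Pnrc1 (-0.31) and the Lsm ring subunits Lsm6 (-0.53) and Lsm4 (-0.39), and the other 11 did not pass, where 15.7% of all genes fell. Without control replicate 1, 2 or 3 or *Rnmt* cKO replicate 2, 1 fell in RPF. In TE, where 6.57% of all genes fell, the 3 that fell became 1 without control replicate 1, control replicate 2 or *Rnmt* cKO replicate 1.

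Genes of poly(A) tail shortening, enzymes as well as their partners, rose or did not pass in total RNA. This step usually comes before decapping of cytoplasmic mRNA. Of 22, 10 rose and 12 did not pass, with a median of 0.26 against -0.00 for all genes. The share called, 45.5%, was below the 54.2% of all genes tested, and 26.3% of all genes rose. With upper quartile scaling 2 of the 22 fell. Pde12, a mitochondrial deadenylase, rose by 0.80 ± 0.06, from 99.5 ± 3.29 to 173 ± 7.71 CPM. Parn, the poly(A)-specific ribonuclease, rose by 0.71 ± 0.10 in total RNA and by 0.42 ± 0.06 in RPF, and Cnot3, a subunit of CCR4-NOT, by 0.65 ± 0.18 in total RNA. In RPF 3 of 22 rose (Btg1 by 0.48, Parn and Cnot7 by 0.42) and 4 fell, with a median of -0.05, numbers near the 14.1% and 15.7% of all genes. Of these, 1 rose without *Rnmt* cKO replicate 1, 2 fell without control replicate 1 and 1 fell without *Rnmt* cKO replicate 2. In TE 6 of 22 fell, with a median of -0.33 against 0.04 for all genes, led by Pde12 (-0.71), Cnot2 (-0.45) and Cnot10 (-0.44), where 6.57% of all genes fell. That count was 3 without control replicate 1 or control replicate 3 and 10 without *Rnmt* cKO replicate 3. In *Rnmt* cKO replicate 3 alone 4 fell, with a median of -0.15.

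Nonsense-mediated decay, which feeds mRNAs with premature stops into decapping, likewise rose or did not pass in total RNA. Of 11 genes, 8 rose and 3 did not pass in total RNA, with a median of 0.40, where 26.3% of all genes rose. With upper quartile scaling 1 fell. Smg5, an adaptor of phosphorylated Upf1, rose by 0.61 ± 0.06, from 167 ± 6.77 to 254 ± 5.89 CPM (edgeR adjusted p = 8.4e-05), and the helicase Upf1 by 0.56 ± 0.09. In RPF 3 rose (Dhx34 by 0.41, Smg5 by 0.26 and Upf1 by 0.23), 1 fell and 7 did not pass, where 14.1% of all genes rose and 15.7% fell. The number that rose in RPF was 0 without control replicate 1 and 1 without control replicate 2 or 3 or *Rnmt* cKO replicate 2 or 3, and the fall was lost whichever replicate was left out, except control replicate 2. In TE 3 fell, among them Upf2 (-0.65) and Smg5 (-0.35), with a median of -0.25, where 6.57% of all genes fell.

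The RNA exosome, which degrades from the 3′ end and leaves the cap fragments that Dcps clears, was divided. Of 19 genes in total RNA, 8 rose, 6 fell and 5 did not pass, with a median of 0.11, where 26.3% of all genes rose and 28.0% fell. The number that rose was 5 with upper quartile scaling, under the replicate block and without control replicate 1. It was 4 without control replicate 2 or *Rnmt* cKO replicate 1. The median was 0.061 with upper quartile scaling and 0.17 without *Rnmt* cKO replicate 2. Exosc10, its nuclear catalytic subunit, rose by 0.65 ± 0.07 in total RNA, from 92.5 ± 3.10 to 146 ± 11.0 CPM, and fell by 0.40 ± 0.07 in RPF, so that its TE fell by 1.05 ± 0.11 (edgeR adjusted p = 5.2e-05). RNA and RPFs of Exosc10 thus moved in opposite directions, like those of Xrn2. Dis3l, the cytoplasmic catalytic subunit, rose by 0.64 ± 0.07 in total RNA with a TE that fell by 0.66, and the core subunit Exosc4 rose by 0.61 in total RNA and 0.35 in RPF. Mphosph6 RPFs rose by 0.63, and in all 2 genes rose and 2 fell in RPF and 1 rose and 4 fell in TE. Of all genes, 14.1% rose and 15.7% fell in RPF, and 3.24% rose and 6.57% fell in TE. Leaving out control replicate 2 or 3 or *Rnmt* cKO replicate 2 or 3 left 1 that rose in RPF, and the rise in TE was lost without control replicate 1 or 3 or *Rnmt* cKO replicate 1 or 3.

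Other genes of the Nudix and HIT families, relatives of Dcp2, Nudt16 and Dcps, mostly fell or did not pass in total RNA. Of 21, 10 fell, 3 rose and 8 did not pass, with a median of -0.21, where 28.0% of all genes fell and 26.3% rose. The 10 that fell became 6 without control replicate 1, control replicate 2 or *Rnmt* cKO replicate 1 and 3 for *Rnmt* cKO replicate 3 alone, and 1 rose without control replicate 2. Fhit, a hydrolase of diadenosine triphosphate, fell by 0.91 ± 0.21 from a low level, 1.31 ± 0.07 to 0.70 ± 0.02 CPM, Nudt14 by 0.83 ± 0.13 and Nudt13 by 0.57 ± 0.20. In RPF 2 of 19 fell (Nudt14 by 0.60 and Nudt1 by 0.37) and 3 rose, led by Nudt4 (0.63 ± 0.13), but 1 rose without control replicate 2 or *Rnmt* cKO replicate 1 or 3. Of all genes, 15.7% fell and 14.1% rose in RPF. In TE edgeR called 0 of 19 in the main test, and 1 increased with DESeq2. At the adjusted threshold, 6.57% of all genes fell and 3.24% rose in TE. At an unadjusted edgeR p under 0.05, 5 of the list increased and 0 decreased. Of all 10668 genes tested for TE, 2627 were under that unadjusted threshold, in either direction. Over the alternatives 0 to 1 of the list fell and 0 to 2 rose, with 2 under upper quartile scaling.

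Of 6 partners of Xrn2 and factors of transcription termination, 2 rose, 1 fell and 3 did not pass in total RNA. Of all genes tested, 26.3% rose and 28.0% fell there. Without control replicate 1 or 2, 1 of the 6 rose. In RPF 1 fell and 5 did not pass, where 15.7% of all genes fell. In TE 1 fell and 5 did not pass, where 6.57% of all genes fell. Ttf2, a termination factor, rose by 0.52 ± 0.06 with a TE that fell by 0.32 ± 0.09, a TE call that was lost whichever replicate was left out, and Cdkn2aip, which binds Xrn2, rose by 0.23 ± 0.07.

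**Figure D4:**
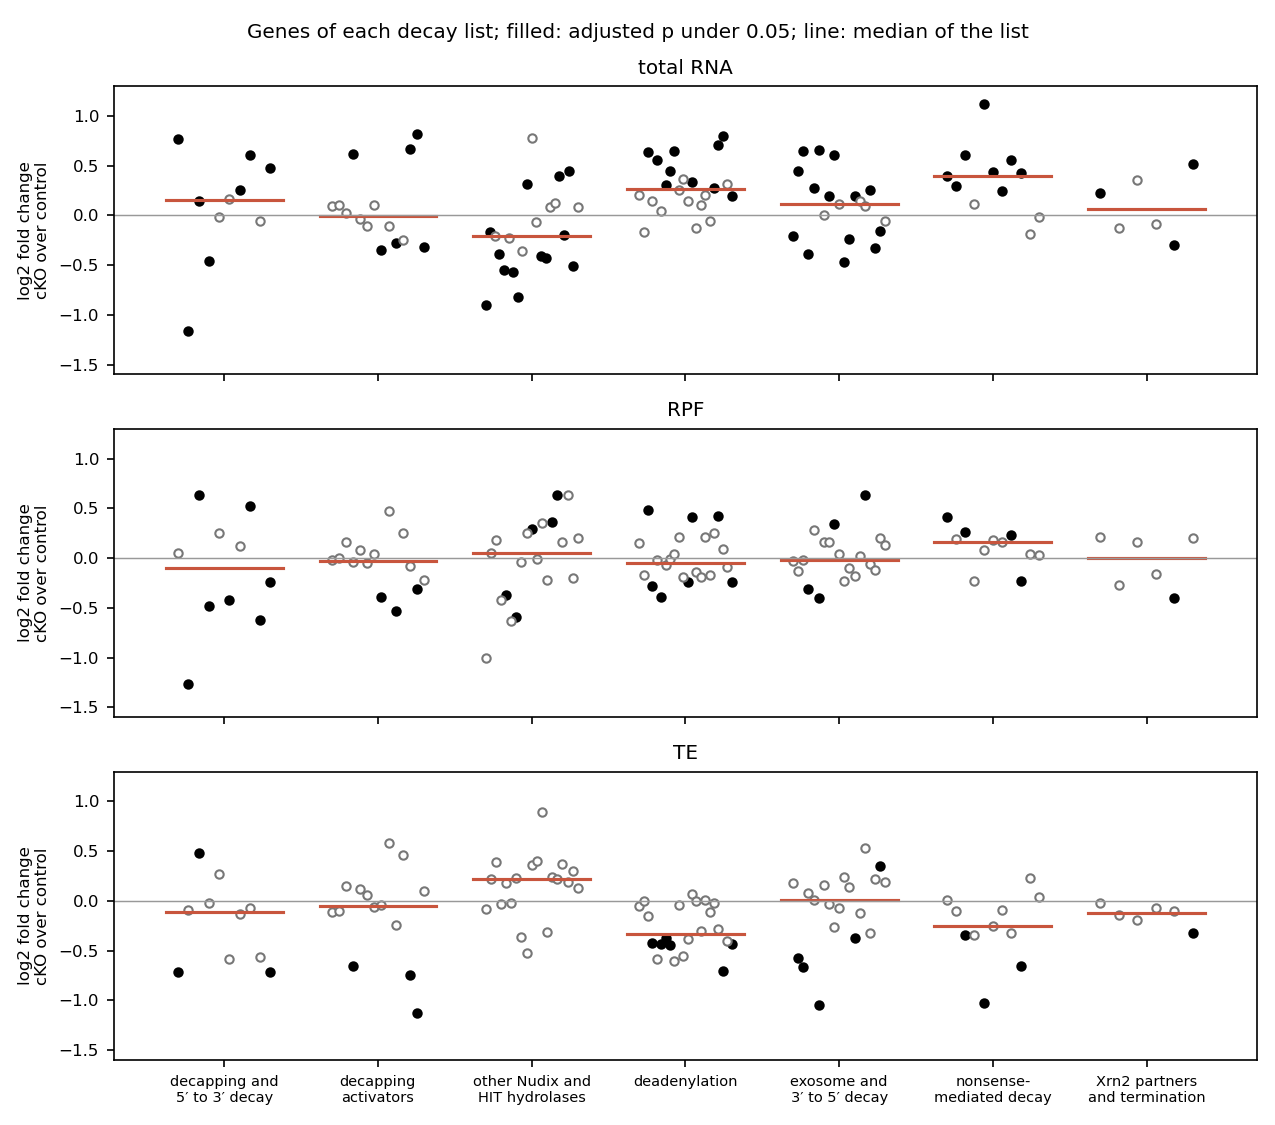
Log2 fold change of *Rnmt* cKO over control (y axis) for each gene of the decapping and 5′ to 3′ decay family and of 6 other decay lists (x axis), in total RNA, RPF and TE; filled circles passed the adjusted p threshold of 0.05 and red lines are list medians. Medians of deadenylation and nonsense-mediated decay lie above 0 in total RNA, at 0.26 and 0.40, and below 0 in TE, at -0.33 and -0.25.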

How the data were processed

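Total cytoplasmic RNA and RPFs were sequenced from control and *Rnmt* cKO CD4 T cells, 12 libraries grouped by genotype label. The authors kept read 2, trimmed adapters with Cutadapt, discarded rRNA and tRNA reads with Bowtie, aligned to mm10 with STAR 2.5.2b and GENCODE vM12, and deposited raw counts of uniquely aligned reads per gene without normalization. Entries that name no gene were left out, and held 41.1 to 47.0% of the reads of total RNA and 53.9 to 70.4% of those of RPF. Mitochondrial rRNA held 18.7 to 23.6% of gene counts in the former and 2.30 to 4.51% in the latter. The authors also deposited a table of normalized signal values with log2 fold changes, p-values and adjusted p-values from edgeR and RiboDiff. The comparison columns were not used, and the signal served to identify the counted strand, since the reverse-strand counts matched it up to a single factor per library.

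Tests covered genes above a CPM of 1 in 3 or more of 6 libraries (11519 in total RNA, 11428 in RPF and 10668, passing in both, for TE) by edgeR 4.0.16 (quasi-likelihood F test, TMM; R 4.3.3), after tests on simulated data. Lengths, symbols and positions came from GENCODE vM21 (GRCm38). Log2 CPM used a prior count of 2. The depth gave a median SE of the log2 fold change of 0.10 for total RNA, 0.12 for RPF and 0.16 for TE, and duplicate reads were not separated. Alternatives were library size without TMM, upper quartile scaling, TMM without mitochondrial rRNA, DESeq2 1.42.0, edgeR's exact test, no filter or at least 10 counts in every library, both strands, each replicate left out, blocks for replicate number or for genotype and number together, and, chosen after seeing the data, *Rnmt* cKO replicate 3 alone, whose variance is assumed to equal that of the controls.

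The genes and lists were chosen with earlier results of these data known. All 10 genes are described. From each list, up to 3 genes with the largest absolute log2 fold change among those past the threshold without overlap between genotypes are named per comparison, apart from 2 genes that are not reported here. RiboDiff was not used here.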

Additional observations from a re-analysis of the deposited data

Results flagged for a closer look

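The effect of genotype on RPFs differed from that on total RNA for 3 of the 10 genes, by edgeR's test of the interaction over 12 libraries. It differed for 9.81% of all genes tested. The TE change was -0.71 for Dcp1a, -0.72 for Xrn2 and 0.48 for Dcp2, and in each gene the 3 *Rnmt* cKO pairs of libraries lay on the same side of the 3 control pairs. Of all genes tested for TE, 31.6% were separated in this way.

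The main comparisons of genotypes did not use reads on the opposite strand. Reads on the strand opposite to 2 of the genes were more frequent in *Rnmt* cKO than in control total RNA. Opposite to Dcps they averaged 2.64 CPM in *Rnmt* cKOs, from 42, 40 and 68 reads against 15, 13 and 12 in controls. Opposite to Edc3 they averaged 23.5 CPM, from 360, 463 and 499 reads against 287, 246 and 325 in controls, over exons that Edc3 shares in part with Clk3.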

How the results depend on the processing

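Of 480 values recomputed for the 10 genes, 436 kept their direction and their side of the threshold, 27 lost the call, 4 gained it and 13 changed sign. Calls for Dcp1a, Dcp1b, Dcps and Xrn2, for Nudt16 in total RNA and for Dcp2, Edc3 and Xrn1 in RPF held in all 15 alternatives chosen at the start. The values that changed sign had not passed the test: Dcp1a in RPF (-0.061), Edc3 (-0.35) and Dxo (0.14) in total RNA for *Rnmt* cKO replicate 3 alone, Dcps in TE with upper quartile scaling (0.022) and without control replicate 2 (0.061, where leaving out other replicates gave values down to -0.10), Dcp1b in TE without *Rnmt* cKO replicate 3 (0.077, otherwise down to -0.33), Xrn1 in total RNA without control replicate 3 (0.096) or *Rnmt* cKO replicate 3 (0.086, otherwise down to -0.19), Nudt16 in TE without control replicate 2 (0.12) or *Rnmt* cKO replicate 3 (0.088, otherwise down to -0.28), and Dxo in total RNA by library size (0.015) and without *Rnmt* cKO replicate 1 (0.015) or 2 (0.048, otherwise down to -0.084). Of the 10 genes, 3 rose in total RNA with upper quartile scaling, under the replicate block and for replicate 3 alone, against 5, and 3 to 5 when single replicates were left out. In RPF 1 rose with DESeq2 and for replicate 3 alone, against 2 (1 to 2 when replicates were left out), and 3 fell for replicate 3 alone, against 5. In TE 2 to 4 fell and 0 to 1 rose when replicates were left out, and 0 rose for replicate 3 alone, where the control mean rests on 3 libraries and the *Rnmt* cKO on 1. For the other decay lists in total RNA over these alternatives, 7 to 12 deadenylation and 6 to 8 nonsense-mediated decay genes rose, with medians of 0.19 to 0.32 and 0.34 to 0.43. For replicate 3 alone, in RPF 0 decapping activators fell, 0 nonsense-mediated decay and 0 exosome genes rose, and 1 deadenylation gene fell, and in TE 1 decapping activator, 1 exosome and 1 nonsense-mediated decay gene fell. Over all genes, the TE calls were 415 to 812 decreased and 122 to 367 increased when replicates were left out, 214 increased without a filter, and 294 decreased and 81 increased for replicate 3 alone, which gave 520 decreased and 477 increased in RPF. The causes were not tested. Dcp1b was the gene with the lowest CPM, at 5.62 to 15.0 CPM in total RNA.

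Libraries of both genotypes share replicate numbers, but nothing in the labels ties them. Same-numbered deviations correlated at -0.56 to -0.22 between genotypes in total RNA and at -0.04 to 0.25 in RPF. The numbers were therefore not taken as pairing the genotypes in the main tests. With the number as a block, 2751 genes fell and 2455 rose in total RNA, 1636 and 1596 in RPF and 635 and 313 in TE. Total RNA and RPF of the same number and genotype correlated at 0.15 to 0.35 in controls and 0.06 to 0.34 in *Rnmt* cKOs. Those of the same genotype but different numbers correlated at -0.31 to 0.05 in controls and -0.24 to 0.06 in *Rnmt* cKOs. With genotype and number together as a block, 777 fell and 426 rose in TE, against 701 and 346 in the main test.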
